A study of Homo sapiens with 8 samples.

Results

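The genes that load and prepare peptides for MHC class II (MHC-II) were examined in U2OS cells, a human osteosarcoma line, by ChIP-seq of H3K4me3, the trimethylated lysine of histone H3 that marks active promoters. The members were 9 of the 20033 protein-coding genes with a promoter tested, chosen by name and function: CD74, HLA-DMA, HLA-DMB, HLA-DOA and HLA-DOB, which are driven by the class II transactivator CIITA, and IFI30, CTSS, CTSL and LGMN, an interferon-inducible reductase and a set of lysosomal proteases. Libraries came from 3 wild-type (WT) clones and 3 ZBTB48 knockout (KO) clones of U2OS, each library from a separate clone, and all clones had received interferon gamma (IFNγ) at 250 U/ml over 24 h. ZBTB48 is a zinc finger protein that binds telomeric DNA and promoters, and the study asked whether its loss alters H3K4me3 at the promoters it regulates. The effect of IFNγ itself was not compared. The labels name the KO clones without their edits. Since a peak list describes the bulk of a culture, a weaker mark in every cell and a mark in fewer cells cannot be told apart. The p-values measure the spread between libraries, in which differences of clone and of library cannot be told apart.

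MHC-II molecules carry peptides from the endosomal pathway to the cell surface. New class II dimers are bound by the invariant chain, the product of CD74, which fills the peptide groove and steers the dimer to the lysosome. There the cysteine proteases cathepsin S (CTSS) and cathepsin L (CTSL) and the asparaginyl endopeptidase legumain (LGMN) cut the invariant chain and incoming antigens, and the thiol reductase GILT (IFI30) opens disulfide bonds. HLA-DM, a dimer of HLA-DMA and HLA-DMB, then exchanges the remaining invariant chain fragment for antigenic peptide, and HLA-DO, a dimer of HLA-DOA and HLA-DOB, restrains HLA-DM. CIITA does not bind DNA itself. It is recruited to class II promoters by factors that sit on the X box and, through NF-Y, on the Y box, an inverted CCAAT sequence.

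The promoters of the CIITA-driven members and of IFI30 are shown because the former are the ones at which CIITA acts and the latter stands for the genes set against them. Each line gives the 250 bases just upstream of the 5′ end, from RefSeq on GRCh38.p14, which held 7 of the 9 members and not CTSS or LGMN. They lie at chr5:150412911-150413160 (CD74), chr6:32953098-32953347 (HLA-DMA), chr6:32941029-32941278 (HLA-DMB), chr6:33009592-33009841 (HLA-DOA) and chr6:32817003-32817252 (HLA-DOB), all on the minus strand, and at chr19:18173563-18173812 on the plus strand (IFI30). Capitals mark matches, on either strand, to the motifs named in the paragraph after them.
CD74: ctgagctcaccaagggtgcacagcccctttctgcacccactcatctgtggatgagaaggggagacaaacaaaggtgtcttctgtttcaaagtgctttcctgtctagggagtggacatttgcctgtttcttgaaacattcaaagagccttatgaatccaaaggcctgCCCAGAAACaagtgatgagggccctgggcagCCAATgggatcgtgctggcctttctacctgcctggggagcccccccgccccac
HLA-DMA: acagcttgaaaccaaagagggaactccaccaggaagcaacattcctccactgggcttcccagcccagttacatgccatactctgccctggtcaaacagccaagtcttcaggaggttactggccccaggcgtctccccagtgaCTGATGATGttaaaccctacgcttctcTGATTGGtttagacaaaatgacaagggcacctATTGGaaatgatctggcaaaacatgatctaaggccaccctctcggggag
HLA-DMB: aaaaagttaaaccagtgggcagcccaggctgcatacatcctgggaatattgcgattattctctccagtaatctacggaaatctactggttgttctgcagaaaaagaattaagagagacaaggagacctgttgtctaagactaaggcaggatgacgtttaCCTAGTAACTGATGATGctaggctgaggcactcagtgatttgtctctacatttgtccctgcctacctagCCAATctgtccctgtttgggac
HLA-DOA: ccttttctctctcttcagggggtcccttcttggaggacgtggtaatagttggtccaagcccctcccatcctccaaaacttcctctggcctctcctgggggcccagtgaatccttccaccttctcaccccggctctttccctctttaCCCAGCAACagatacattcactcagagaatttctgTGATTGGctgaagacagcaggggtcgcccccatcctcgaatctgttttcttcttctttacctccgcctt
HLA-DOB: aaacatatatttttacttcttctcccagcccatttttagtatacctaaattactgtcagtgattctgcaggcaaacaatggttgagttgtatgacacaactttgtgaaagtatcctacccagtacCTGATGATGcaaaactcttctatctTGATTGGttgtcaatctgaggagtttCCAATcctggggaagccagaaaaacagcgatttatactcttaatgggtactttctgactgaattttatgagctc
IFI30: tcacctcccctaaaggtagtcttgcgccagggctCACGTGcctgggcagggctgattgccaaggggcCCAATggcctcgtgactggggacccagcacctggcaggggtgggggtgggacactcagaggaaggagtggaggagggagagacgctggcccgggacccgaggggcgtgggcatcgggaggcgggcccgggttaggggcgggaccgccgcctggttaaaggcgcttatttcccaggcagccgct

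Positions were counted from the 5′ end, with the base just upstream at −1, and the motifs were chosen after the letters had been read. CCAAT, which the Y box holds inverted, was found on either strand in all 7 member promoters and in 32% of the 35116 promoters of the table. Among the members the inverted form was found only in HLA-DMA, HLA-DOA and HLA-DOB. TGATTGG, which holds CCAAT on the opposite strand and so overlaps it, was found in HLA-DMA, HLA-DOA and HLA-DOB and in 6.62% of all promoters. CTGATGATG, a stretch of the X box, was found in HLA-DMA, HLA-DMB and HLA-DOB and in 0.222% of all. CTGATGATG followed within 40 bases by TGATTGG on the strand of the gene was found in 4 of the 35116 promoters, those of HLA-DMA (18 bases between them), HLA-DOB (16 bases between them), HLA-DRB1 and THBS3. CCNNGNAAC, the pattern of the other end of the X box, was found in CD74, HLA-DMB and HLA-DOA and in 12.9% of all, and in HLA-DMB it shared its last base with CTGATGATG. CACGTG, the E box, was found only in IFI30 among the members and in 6.34% of all. None of the 7 held the cAMP response element TGACGTCA (1.65% of all), the interferon-stimulated response element (3.02%) or the gamma-activated site TTCNNNGAA (6.57%), which says only that these letters were not in these windows. The matches are descriptions of sequence and not of binding.

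Each library was represented by its own list of broad peaks, with 21712 to 26370 peaks on chromosomes 1 to 22, X and Y. WT replicates 1 and 2 stood apart from the other 4 lists. Their median fold enrichment over background was 13.4 and 14 and their median peak width 2297 and 2353 bp, against 4.19 to 4.65 and 1275 to 1487 bp in WT replicate 3 and the 3 KO libraries. Genotype and kind of list thus partly coincide, so WT replicate 3 is also set beside the KO libraries by itself, without a test, and lengths are also scaled within each list. At the targeted gene, ZBTB48, all 6 libraries had a peak in the 3 kb window around the 5′ end, covering 1241 to 3330 bp. A promoter mark does not check a knockout made by editing a coding sequence. A peak in no library was found at 28% of all promoters. Among osteoblast lineage markers, RUNX2 and COL1A1 had a peak in all 6 libraries and COL1A2, ALPL, SP7, BGLAP and IBSP in none. Among leukocyte markers, PTPRC, SPI1, MS4A1, CD79A, CD79B, CD14, CSF1R, LYZ and AIF1 had no peak in any library. PAX5 had one in all 6, and ITGAX in 2 WT and 2 KO libraries.

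Loss of ZBTB48 was accompanied by fewer H3K4me3 peaks at the CIITA-driven members and by no fewer at IFI30 and the lysosomal proteases. Within 3 kb of the start, a peak was found at 5, 5 and 4 of the 5 CIITA-driven genes in WT replicates 1, 2 and 3, and at 1, 3 and 1 of them in KO replicates 1, 2 and 3. The means were 4.67 genes in WT and 1.67 in KO. At IFI30 and the proteases peaks were called at 3, 4 and 4 of the 4 genes in WT replicates 1, 2 and 3, and each KO library had one at all 4. Only CTSS in WT replicate 1 was without a peak. A peak in every WT library was found at 4 of the 5 CIITA-driven genes and 3 of the 4 others, against 67.7% of all promoters. A peak in every KO library was found at 1 of the 5 and at 4 of the 4, again against 67.7% of all promoters. No p was computed for these counts, since the genes had been grouped with earlier results of these data known.

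The size of each mark was measured as covered length, the bases that peaks covered in a window reaching 3 kb up- and downstream of the MANE Select 5′ end. Values were compared by two-sided exact permutation over the 20 assignments of 6 libraries to 3 and 3, in which p cannot fall below 0.1, so that no gene could reach the usual threshold for significance. Adjusted by the Benjamini-Hochberg method over the 14422 promoters covered in at least 1 library, a p of 0.1 became 0.196. Groups that did not overlap were common: every WT library exceeded every KO library at 50.8% of these promoters (7330, and 13027 without WT replicate 3 or 11485 without KO replicate 1), and the reverse held at 0.111%. This separation was seen at 6 of the 9 members, 4 CIITA-driven and 2 others, which is near the background and is not by itself a result about them. The median difference between the WT and KO means was 965 bp over all covered promoters. It was 850 bp over the CIITA-driven members and 714 bp over the others. Among the members, only CD74 (2327 bp) and HLA-DMA (1637 bp) exceeded the median of all covered promoters. A peak in every WT and no KO library was rare, at 0.115% of all promoters (23, and 92 without WT replicate 3 or 79 without KO replicate 1) or 0.169% of those called in every WT library, and the reverse was found at 0.0349%. It was seen at 2 of the 9 members, HLA-DMA and HLA-DOA, and the reverse at none. The HLA members lie in 1 region of chromosome 6 and are not independent of each other.

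**Figure D1:**
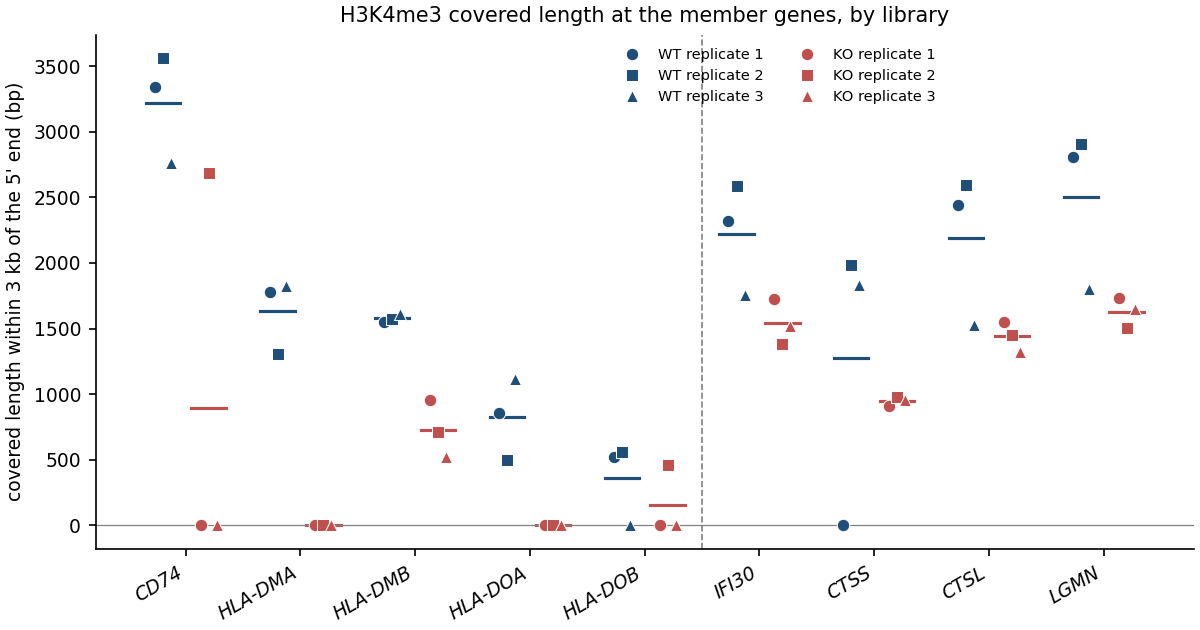
Covered length in bp in the window of 3 kb up- and downstream of the 5′ end (y axis) for each member gene (x axis), with 1 point for each library, WT in blue and KO in red, shaped by replicate, and a bar at the mean of 3 libraries. The CIITA-driven genes lie left of the dashed line. The 3 KO points lie at 0 for HLA-DMA and HLA-DOA, while for IFI30, CTSL and LGMN they lie at 1324 to 1737 bp beside the WT replicate 3 triangles at 1530 to 1804 bp.

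CD74 (ENSG00000019582, minus strand, 5′ end at 150412910 on chromosome 5) encodes the invariant chain. Its covered length was 3342, 3561 and 2761 bp in WT replicates 1, 2 and 3, and 0, 2682 and 0 bp in KO replicates 1, 2 and 3. KO replicate 2 thus came within 79 bp of the lowest WT library, and the other KO libraries had no peak at all within 35095 bp. The WT mean was 3221 ± 413 bp and the KO mean 894 ± 1548 bp (SD, n = 3 each; exact permutation p = 0.1). The mark lay mostly downstream of the start. In WT replicates 1 and 2 the peak ran from −341 to 5526 bp and from −560 to 3356 bp relative to the 5′ end, and it overlapped exon 1 and intron 1 of the 9-exon transcript. In WT replicate 3 and KO replicate 2 it began 11 and 14 bp inside the gene and reached 2771 and 2695 bp. These peaks were alike in place and in fold enrichment (2.89 and 2.78), but the −log10 q that the peak caller gave was 23.98 in WT replicate 3 and 2.61 in KO replicate 2, at percentiles 46.9 and 8.1 of their own lists. With peaks of −log10 q of at least 3 CD74 was called in 3 WT and 0 KO libraries. With fold enrichment of at least 4 the peaks of both WT replicate 3 and KO replicate 2 were lost, which left 2 WT libraries (exact permutation p = 0.4). The pattern of 3 WT libraries and KO replicate 2 alone was shared by 4 of the 20033 promoters (0.02%), CD74 included.

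HLA-DMA (ENSG00000204257, minus strand, 5′ end at 32953097 on chromosome 6) had the largest lead of WT replicate 3 over the KO libraries among the members. It encodes the alpha chain of the peptide exchange factor HLA-DM. The covered length was 1782, 1305 and 1825 bp in WT replicates 1, 2 and 3 and 0 bp in each KO library. The WT mean was 1637 ± 289 bp (SD, n = 3; exact permutation p = 0.1). All 3 WT peaks covered the 5′ end, with upstream edges between −201 and −177 bp, beyond CTGATGATG at −108, and ended 1103 to 1647 bp downstream. They covered exon 1 and also the 5′ end of a read-through gene, ENSG00000248993, just upstream of that of HLA-DMA. The weakest, in WT replicate 2, had a fold enrichment of 3.25 and a −log10 q of 4.06, at percentiles 12.3 and 13.9 of its list. That peak was lost with fold enrichment of at least 4 (exact permutation p = 0.4). The nearest KO peak lay 11655 bp away or farther and belonged to HLA-DMB. BRD2, which encodes a bromodomain protein and starts at −15497 bp relative to HLA-DMA, had 3237 to 3738 bp in the KO libraries against 3622 to 4821 bp in WT. When the 5′ end of any annotated transcript was used, 1 of which starts at BRD2, the difference at HLA-DMA fell from 1637 to 1233 bp (exact permutation p = 0.2).

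HLA-DMB (ENSG00000242574, minus strand, 5′ end at 32941028 on chromosome 6) encodes the beta chain of HLA-DM, and unlike HLA-DMA it had a peak over its 5′ end in all 6 libraries. A peak in all 6, within 3 kb, was found at 66.9% of promoters. The covered length was 1547, 1576 and 1613 bp in WT replicates 1, 2 and 3 and 953, 715 and 519 bp in KO replicates 1, 2 and 3. The groups did not overlap, and the means were 1579 ± 33.1 bp (SD, n = 3) and 729 ± 217 bp (SD, n = 3; exact permutation p = 0.1). Their difference of 850 bp was below the median of 965 bp over all covered promoters. The KO peaks were shorter mainly on the side of the gene body. They ended 341 to 547 bp downstream of the 5′ end, against 1087 to 1246 bp in WT, while their upstream edges lay at −414 to −167 bp and those of WT at −488 to −300 bp. The fold enrichment of the KO peaks was 5.24 to 7.47, at percentiles 63.8 to 96.6 of their own lists. That of WT replicates 1, 2 and 3 was 10.6, 10.06 and 4.94, at percentiles 43.8, 41.6 and 71.7. The −log10 q was 45.5, 37.14 and 25.86 in WT replicates 1, 2 and 3 and 14.52, 22.02 and 10.36 in KO replicates 1, 2 and 3. Its percentiles were 45.2, 41.3 and 48.4 in WT and 37.3, 42.1 and 30.6 in KO.

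HLA-DOA (ENSG00000204252, minus strand, 5′ end at 33009591 on chromosome 6) encodes the alpha chain of HLA-DO. It was covered by 859, 501 and 1114 bp in WT replicates 1, 2 and 3 and by 0 bp in each KO library, with a WT mean of 825 ± 308 bp (SD, n = 3; exact permutation p = 0.1). All 3 WT peaks covered the 5′ end. The weakest, in WT replicate 2, had a −log10 q of 3.02 at percentile 9.7 of its list, and the others 14.55 and 9.09. HLA-DOA was thus called in 3 WT and 0 KO libraries with −log10 q of at least 3 as well, but in 2 WT libraries with fold enrichment of at least 4, where HLA-DMA and CD74 were also called in 2 WT libraries and no KO library.

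HLA-DOB (ENSG00000241106, minus strand, 5′ end at 32817002 on chromosome 6), the beta chain of HLA-DO, had the shortest mark of the members. The covered length was 520, 562 and 0 bp in WT replicates 1, 2 and 3 and 0, 460 and 0 bp in KO replicates 1, 2 and 3, and the groups overlapped. The means were 361 ± 313 bp (SD, n = 3) and 153 ± 266 bp (SD, n = 3; exact permutation p = 0.4, adjusted 0.431). The 2 WT peaks lay over the 5′ end, whereas the KO peak lay 1765 to 2224 bp inside the gene, with a −log10 q of 1.97. In WT replicate 1 the peak began at −67 bp, downstream of CTGATGATG at −125, and in WT replicate 2 it began at −211 bp. In the window of 1 kb HLA-DOB was called in 2 WT libraries and not in KO. WT replicate 3, which had a peak at the other CIITA-driven members, had its nearest peak 19089 bp from HLA-DOB.

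**Figure D2:**
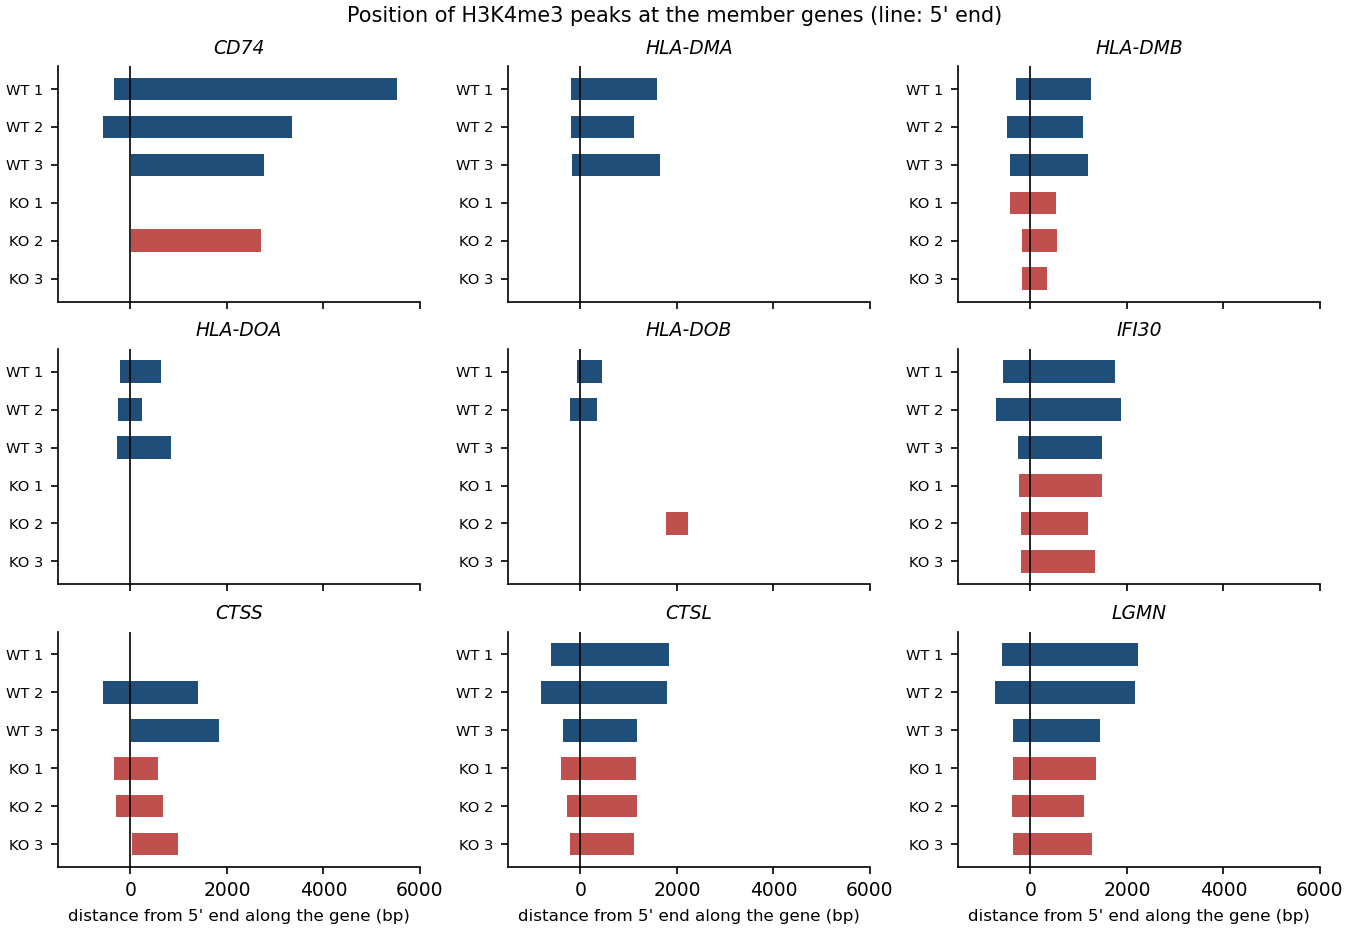
Position of each peak at the member genes, in bp along the gene from its 5′ end (x axis, upstream negative), with 1 row for each library, WT in blue and KO in red. HLA-DMA and HLA-DOA have bars in the WT rows only, the KO bars of HLA-DMB end at 341 to 547 bp, and the bars of IFI30, CTSL and LGMN span the 5′ end in all 6 rows.

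At IFI30, CTSL and LGMN the 5′ end was under a peak in each of the 6 libraries. IFI30 (ENSG00000216490, plus strand, 5′ end at 18173813 on chromosome 19) was covered by 2323, 2590 and 1757 bp in WT replicates 1, 2 and 3 and by 1723, 1385 and 1519 bp in KO replicates 1, 2 and 3. The groups did not overlap (2223 ± 425 bp against 1542 ± 170 bp, SD, n = 3 each; exact permutation p = 0.1), but WT replicate 3 led KO replicate 1 by only 34 bp. Its peak ran from −264 to 1492 bp and that of KO replicate 1 from −233 to 1489 bp, with nearly the same edges.

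CTSL (ENSG00000135047, plus strand, 5′ end at 87726119 on chromosome 9) had strongly enriched peaks, at percentiles 78.1 to 96.4 of the fold enrichment of their own lists in WT and 80.4 to 85.6 in KO. The covered length was 2442, 2596 and 1530 bp in WT replicates 1, 2 and 3 and 1547, 1455 and 1324 bp in KO replicates 1, 2 and 3. WT replicate 3 fell 17 bp below KO replicate 1, so the groups overlapped (2189 ± 576 bp against 1442 ± 112 bp, SD, n = 3 each; exact permutation p = 0.2, adjusted 0.245). LGMN (ENSG00000100600, minus strand, 5′ end at 92748627 on chromosome 14) had 2810, 2904 and 1804 bp in WT and 1737, 1505 and 1646 bp in KO (2506 ± 610 bp against 1629 ± 117 bp, SD, n = 3 each; exact permutation p = 0.1). Again WT replicates 1 and 2 were high, and WT replicate 3 exceeded the highest KO library by 67 bp.

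CTSS (ENSG00000163131, minus strand, 5′ end at 150765778 on chromosome 1), the protease best known for the last cuts of the invariant chain in antigen-presenting cells, had a pattern of its own. It had no peak in WT replicate 1, 1981 bp in WT replicate 2 and 1836 bp in WT replicate 3, and 909, 979 and 956 bp in KO replicates 1, 2 and 3. The KO values were close together and the WT values were not (1272 ± 1104 bp against 948 ± 35.7 bp, SD, n = 3 each; exact permutation p = 0.7, adjusted 0.737). A peak in 5 libraries with WT replicate 1 alone lacking it was found at 0.105% of all promoters. Without WT replicate 1 the difference rose from 324 to 960.5 bp (exact permutation p = 0.1), without WT replicate 2 it was −30 bp and without WT replicate 3 it was 42.5 bp. Its peaks were weak, with −log10 q of 1.69 to 4.38 in KO and of 14.48 and 2.25 in WT replicates 2 and 3. A minimum −log10 q of 3 removed the peaks of WT replicate 3 and KO replicate 3.

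The lead of WT replicate 3 over the highest KO library, within the lists of the same kind, set both groups of members against all promoters. A lead of at least 500 bp was found at 5.53% of the 14281 promoters that had a peak in 1 or more of the 4 lists. It was found at 3 of the 5 CIITA-driven members and at 1 of the 4 others. A lead of any size was found at 54.4% of promoters, 4 of the 5 and 3 of the 4. A call in WT replicate 3 and in no KO library, as at HLA-DMA and HLA-DOA, was found at 0.983% of the promoters called in WT replicate 3. The lead was 1825 bp at HLA-DMA, a size reached by 25 promoters (0.175%), 1114 bp at HLA-DOA (142 promoters, 0.994%) and 660 bp at HLA-DMB (520 promoters, 3.64%). At CTSS it was 857 bp (326 promoters, 2.28%). The lead was small or negative at the other members, with 79 bp at CD74, 67 bp at LGMN, 34 bp at IFI30, −17 bp at CTSL and −460 bp at HLA-DOB. The median lead was 660 bp over the CIITA-driven members, 50.5 bp over the others and 14 bp over all 14422 promoters.

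**Figure D3:**
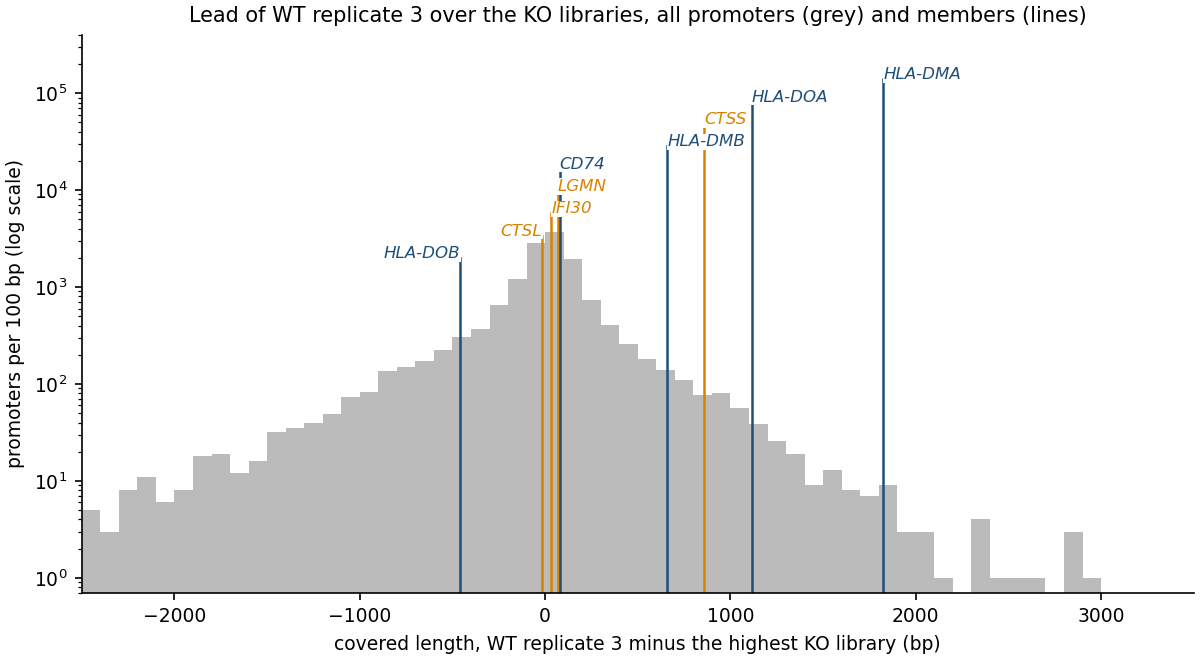
Number of promoters per 100 bp (y axis, log scale) by the covered length of WT replicate 3 minus that of the highest KO library (x axis, bp), with the CIITA-driven members as blue lines and the others as orange lines. HLA-DMA at 1825 bp and HLA-DOA at 1114 bp stand in the right tail, and IFI30, CTSL and LGMN stand at −17 to 67 bp in the middle of the distribution.

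To set aside the different breadth of peaks in the lists, each covered length was also divided by the median covered length, in the same library, of the 13399 promoters covered in all 6 libraries. These medians were 3330 and 3259 bp in WT replicates 1 and 2 and 1670 to 1979 bp in the other 4 libraries. On this scale every WT library exceeded every KO library at 5.75% of promoters and the reverse held at 12.1%. HLA-DMA had scaled lengths of 0.54, 0.40 and 0.92 in WT and 0 in each KO library, and HLA-DOA had 0.26, 0.15 and 0.56 in WT and 0 in KO. Since their KO values were 0, the scaling could not alter this separation. The groups overlapped at the other 7 members. At HLA-DMB the KO values of 0.49, 0.40 and 0.31 met the WT values of 0.46, 0.48 and 0.82, and at CD74 KO replicate 2, at 1.52, was above all WT libraries (1.00, 1.09 and 1.40). The 3 kb window cut the CD74 peaks of WT replicates 1 and 2, which reached 5526 and 3356 bp downstream. That of KO replicate 2, which ended at 2695 bp, was not cut, so the order at CD74 depends on the window. The WT mean stayed above the KO mean at all 5 CIITA-driven members, by 0.66 at CD74 and by 0.02 at HLA-DOB. It fell below the KO mean at IFI30 (0.79 ± 0.10 against 0.86 ± 0.07, SD, n = 3 each), CTSS (0.51 ± 0.47 against 0.53 ± 0.06), CTSL (0.77 ± 0.03 against 0.80 ± 0.02) and LGMN (0.88 ± 0.03 against 0.91 ± 0.07), and the groups overlapped at all 4. The median scaled difference was −0.032 over these 4 genes and −0.027 over all covered promoters, so the fall is not particular to them.

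**Figure D4:**
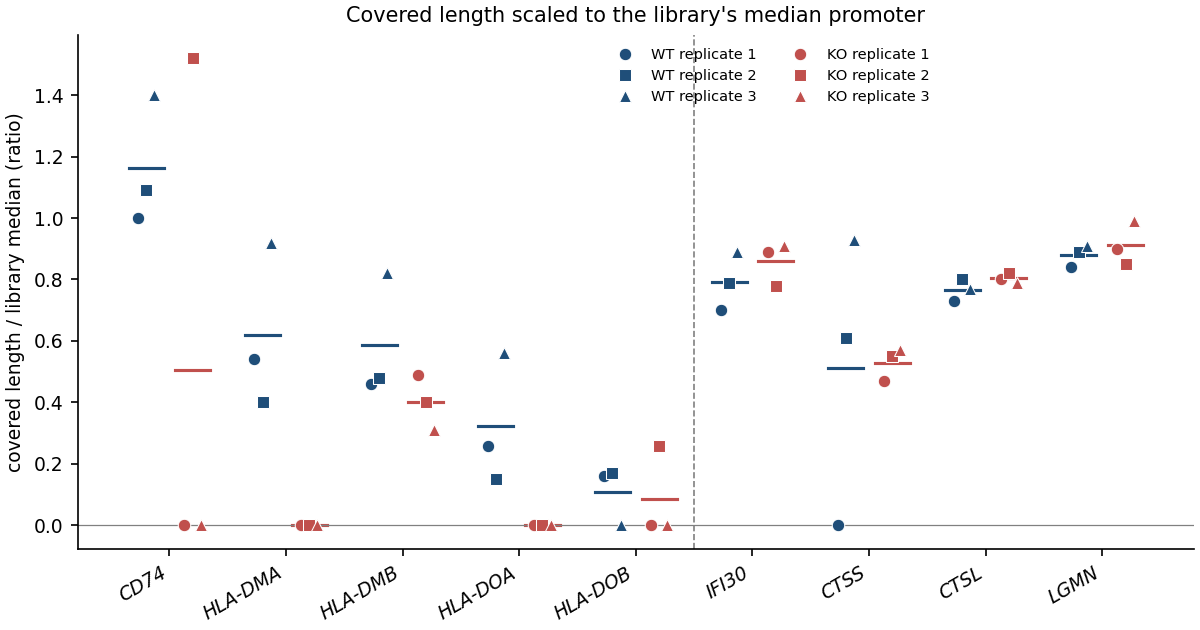
Covered length divided by the library's median over promoters covered in all 6 libraries (y axis, ratio) for each member (x axis), with 1 point for each library, WT in blue and KO in red, and a bar at the mean. WT and KO points overlap at IFI30, CTSS, CTSL and LGMN, and all WT points lie above the KO points at 0 for HLA-DMA and HLA-DOA.

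The genes whose 6 covered lengths came nearest to those of a member, by Euclidean distance over the 6 libraries and at least 100 kb away, were listed for HLA-DMA, CD74 and IFI30. For HLA-DMA they were HLF (690 bp), TYMP (963 bp) and VWA5A (997 bp), and no gene came within 500 bp. For CD74 they were CIITA (1436 bp), CCL20 (1931 bp) and HLA-DRA (1950 bp). CIITA itself had 3471, 3318 and 2837 bp in WT and 0, 1275 and 0 bp in KO, so its KO mark was also in KO replicate 2. For IFI30, 785 genes came within 500 bp, with CDS1 (100 bp), RPP14 and HTD2 (132 bp each) first, the last pair having the same values.

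The rest of the pathway was described from lists of names. Among 9 classical class II genes, the chains of HLA-DR, HLA-DP and HLA-DQ, a peak was found at 6, 4 and 6 in WT and at 3, 3 and 1 in KO, means of 5.33 and 2.33. HLA-DQB1 alone was called in every KO library and 4 of the 9 in every WT library, while over all promoters the share was 67.7% for every WT library and 67.7% for every KO library. In the window of 1 kb no gene of this list, HLA-DQB1 included, was called in all 6 libraries. HLA-DRB1, with 1366, 456 and 2458 bp in WT, was the gene of this list called in every WT and no KO library, and HLA-DRB5 and HLA-DQA2 were called in none. Every WT library exceeded every KO library by at least 500 bp at 4.38% of promoters, at HLA-DMA, HLA-DMB and HLA-DOA among the members and at HLA-DRA in this list. Reads that map to several places had been removed by the authors, which can lower coverage where genes are alike in sequence. How far this touched any gene of the list was not tested. Among 8 transcription factors of class II genes, 7 had a peak in all 6 libraries (RFX5, RFXAP, RFXANK, NFYA, NFYB, NFYC and CREB1) and CIITA was the exception, against 66.9% of all promoters.

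Of 18 other lysosomal proteases and their regulators, 13 were called in all 6 libraries, and CTSK, CTSE, CTSG and CTSW, proteases of osteoclasts, epithelia and leukocytes, in none. Every WT library exceeded every KO library at 9 of the 18. The gap was at least 500 bp only at TPP1, a tripeptidyl peptidase, against 4.38% of covered promoters. TPP1 had 3302, 2608 and 3157 bp in WT and 1411, 1207 and 1447 bp in KO. Calls in all 6 libraries at 66.9% of all promoters and this order of the groups at 50.8% of the covered ones put the counts of 13 and 9 near the background. Of 8 genes of the lysosomal membrane and its biogenesis, 7 were called in all 6 libraries and MARCHF8, a ubiquitin ligase, in none. Every WT library exceeded every KO library at 5 of the 8, again near the background. The gap was at least 500 bp at TFEB, which drives lysosomal genes, and at its relative TFE3, against 4.38% of covered promoters. TFEB had 3390, 3479 and 3385 bp in WT and 2618, 1887 and 1813 bp in KO, and TFE3 had 4338, 4407 and 3939 bp in WT and 3124, 2872 and 3007 bp in KO.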

How the data were processed

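H3K4me3 ChIP-seq peak lists of 3 WT and 3 ZBTB48 KO clones were used. The 2 WT input libraries were not analysed here. Groups and replicate numbers were taken from the labels. The authors aligned trimmed paired-end reads to GRCh38 with Bowtie2 2.3.5.1, discarded reads that mapped to several places or were duplicates, and ran MACS2 2.1.1.2 for broad peaks on each library at the default q-value threshold. Whether an input served as control is not given in the sources used here. The deposited fold enrichment is a ratio over local background, and the −log10 q in the deposited lists, like the −log10 p, is a mean over the peak. The deposited score was not used. These values ranked or filtered peaks within a list. The lists hold no counts, so depth is unknown and a missing peak means only that none was called.

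Peaks were placed 1-based on GENCODE release 44, and a gene was called when a peak overlapped its window by at least 1 bp. The 5′ end was that of the MANE Select or, failing that, the canonical transcript. Python 3.11.15 and numpy 2.4.6 served for the exact permutation tests, and the procedure was tested on simulated data. Upstream bases came from the RefSeq promoter table. Members, lists and alternatives were chosen with earlier results of these data known. Named genes were the members, genes called in only 1 genotype or in no library, genes whose groups were at least 500 bp apart, genes that share a member's peak, and the 3 genes nearest to each of 3 members. The RFX and NF-Y genes, CREB1, BRD2, THBS3 and markers outside this rule were named after their values were seen. Some markers are not reported here. Alternatives were filters on −log10 q and fold enrichment, equal peak numbers, other windows, overlaps and 5′ ends, scaling, the replicate block, and leaving out each library.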

Additional observations from a re-analysis of the deposited data

How the results depend on the processing

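At HLA-DMA and HLA-DOA no KO library had a peak, so filters, scaling and leaving out a library could not turn the direction. The groups came to overlap with fold enrichment of at least 4 at CD74, HLA-DMA and HLA-DOA (exact permutation p = 0.4 each). When scaled they did so at CD74 and IFI30 (exact permutation p = 0.4 each), HLA-DMB (p = 0.3) and LGMN (p = 0.6). They also did so at LGMN in the window of 1 kb and at HLA-DMA with the 5′ end of any transcript (exact permutation p = 0.2 each). The difference between the groups in the number of CIITA-driven genes called was 3 genes as reported, 2.67 to 3.67 when 1 library was left out, 2.33 for WT replicate 3 against KO, and 2 with the 5′ end of any annotated transcript, where the BRD2 peak counts for HLA-DMA. For IFI30 and the proteases it was −0.333 genes, −0.5 to 0 when 1 library was left out, and turned to 0.333 with fold enrichment of at least 4, which removed every KO peak of CTSS. The lists did not meet this filter alike. A fold enrichment of 4 lay just below the medians of WT replicate 3 and the KO libraries (4.19 to 4.65). It lay far below those of WT replicates 1 and 2 (13.4 and 14).

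The difference in covered length turned at 5 members. Scaled to the library median it was −0.0668 at IFI30, −0.0196 at CTSS, −0.0366 at CTSL and −0.0284 at LGMN. The median scaled difference over all covered promoters was −0.027. At CTSS the difference in covered length was −91 bp in the window of 1 kb. It ranged from −30 bp without WT replicate 2 to 960.5 bp without WT replicate 1. At HLA-DOB the difference was −153 bp for WT replicate 3 against KO. The number of promoters with every WT library above every KO library fell from 7330 to 4436 with fold enrichment of at least 4 and ranged from 7404 to 13027 when 1 library was left out, highest without WT replicate 3. The number called in all WT and no KO libraries was 13 with the 5′ end of any transcript and ranged from 26 to 92 when 1 library was left out. The cause of these shifts was not tested.

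With the replicate number as a block the differences are the same by construction (3 genes for the CIITA-driven members, 1637 bp at HLA-DMA), and the exact sign-flip p at HLA-DMA was 0.25, the smallest that 8 sign changes allow. Across 13399 promoters the deviations of same-numbered WT and KO libraries had correlations of −0.11, −0.02 and −0.01. These values cannot show whether the numbers pair the libraries, since the WT lists were of different kinds and the KO lists were not.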
